A study of Mus musculus with 2 samples.

Results

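The genes described here are Gpc3, Dcx, Lpar4, Gxylt2, Htra3 and Mfap4, 6 of the 55487 genes listed. They were chosen by their summed UMI levels in myogenic cells, which were lower in the Setdb1 knockout than in the wild type, so those levels are the choice itself and are given as a description with no test. The KO library came from the conditional Setdb1 knockout mouse (Setdb1-cKO). The WT library came from wild-type mice, and both were made from injured tibialis anterior (TA) muscle of mice 8-12 weeks old. Hindlimb muscles of both legs are also named as the tissue taken. After sorting on Hoechst and propidium iodide staining, cells were sequenced by 10x Genomics 3' chemistry (v2), 1 library per genotype. Not given in the sources used are the injury agent, the day after injury, the Cre driver, the sex of the mice and the number of animals. With 1 library a genotype there is no replicate check, and all intervals cover counting error only.

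SETDB1 methylates lysine 9 of histone H3, a mark of silenced genes and silenced endogenous retroviruses. Muscle stem cells, which carry the transcription factor PAX7, leave quiescence after injury, divide as myoblasts and then turn on MYOG, exit the cell cycle and fuse into fibres. The 6 genes act at the cell surface, in the cytoskeleton, in the Golgi and outside the cell. Gpc3 encodes glypican 3, a heparan sulphate proteoglycan anchored in the membrane that tunes Hedgehog and other growth factor signals. Lpar4 encodes a G protein-coupled receptor for lysophosphatidic acid. Dcx encodes doublecortin, a microtubule-binding protein best known from migrating neurons and also described in muscle progenitors of regenerating mouse muscle. Gxylt2 encodes a glycosyltransferase that adds xylose to O-glucose on the EGF repeats of Notch. Htra3 encodes a secreted serine protease that in mice was found to restrain TGF-beta family signalling. Mfap4 encodes an extracellular glycoprotein that binds elastic fibres and collagen.

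In the GENCODE M21 annotation of GRCm38, Gpc3, Dcx and Lpar4 lie on chromosome X and the other 3 on different autosomes. Gpc3 spans chrX:52272426-52613950 on the minus strand, Dcx spans chrX:143855842-143933311 on the minus strand, and Lpar4 spans chrX:106920625-106933900 on the plus strand. Gxylt2 lies at chr6:100704734-100810913 (plus strand), Htra3 at chr5:35652023-35679782 (minus strand) and Mfap4 at chr11:61485431-61488900 (plus strand). The 150 bases before the gene start are shown for the 5 genes with an entry in the RefSeq promoter table (GRCm38.p6), because these genes were low together in the KO library. Where the RefSeq and GENCODE starts differ, the window ends at the one farther upstream. The windows are Gpc3 chrX:52613975-52614124 (minus strand), Dcx chrX:143933312-143933461 (minus strand), Lpar4 chrX:106920475-106920624 (plus strand), Gxylt2 chr6:100704584-100704733 (plus strand), Htra3 chr5:35679783-35679932 (minus strand). Each is written 5′ to 3′ along the gene's strand, and capitals mark matches of CANNTG, the E-box recognised by MyoD and its relatives, which reads the same on both strands.
Gpc3: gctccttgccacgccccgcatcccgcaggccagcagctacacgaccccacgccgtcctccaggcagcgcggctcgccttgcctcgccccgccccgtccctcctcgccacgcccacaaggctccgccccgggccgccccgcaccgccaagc
Dcx: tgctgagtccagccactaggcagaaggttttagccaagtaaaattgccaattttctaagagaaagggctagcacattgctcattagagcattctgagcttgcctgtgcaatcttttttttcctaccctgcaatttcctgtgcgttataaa
Lpar4: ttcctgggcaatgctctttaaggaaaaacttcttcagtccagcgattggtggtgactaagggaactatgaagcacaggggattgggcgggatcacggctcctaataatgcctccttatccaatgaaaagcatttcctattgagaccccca
Gxylt2: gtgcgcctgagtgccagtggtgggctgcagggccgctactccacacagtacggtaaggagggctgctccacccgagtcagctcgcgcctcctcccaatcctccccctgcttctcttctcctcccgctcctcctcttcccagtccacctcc
Htra3: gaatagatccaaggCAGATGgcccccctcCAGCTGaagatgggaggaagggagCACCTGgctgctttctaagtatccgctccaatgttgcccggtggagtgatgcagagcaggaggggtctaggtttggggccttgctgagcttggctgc
Htra3 held 3 CANNTG matches, 1 of them CAGCTG, and the other 4 windows held 0. Over all 32851 promoters of the table, 47.7% held a CANNTG match in the same 150-base window and 8.39% a CAGCTG. The windows differed widely in base composition. That of Gpc3 was 78.0% G or C with 19 CpG pairs, while that of Dcx was 42.0% G or C with 1 CpG, against a median of 54.0% and 4 CpG pairs over the table.

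The deposited matrices held 138667420 UMIs in the KO and 121703522 in the WT library, where a UMI (unique molecular identifier) counts 1 captured RNA molecule. Calling cells from all barcodes gave 5730 KO and 6314 WT cells, with medians of 13015.5 and 12122.5 UMIs, and 6 cell barcodes occurred in both libraries. The myogenic-like class held 373 KO and 687 WT cells, with medians of 21313 and 17379 UMIs. All 15 myogenic markers had UMIs in both libraries there, and their summed level was 3820 CPM in KO and 2721 CPM in WT cells (CPM, a gene's UMIs as a share of all UMIs of the summed cells, scaled to the same total for every group). Setdb1 had 78 UMIs (8.73 CPM) in KO and 246 UMIs (18.3 CPM) in WT myogenic-like cells, a KO over WT ratio of 0.478. In fibro-adipogenic or fibroblast-like cells Setdb1 was at 17.1 CPM in KO and 13.9 CPM in WT cells. The position of the deletion within Setdb1 is not stated, so it is not known whether these reads could show it.

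In the myogenic-like cells as a whole, the level of the glypican in KO cells was the furthest below that in WT cells. Gpc3 was at 6.27 CPM in KO cells (95% Poisson interval 4.73 to 8.14, 56 UMIs) and 62.9 CPM in WT cells (58.8 to 67.3, 848 UMIs), a ratio of 0.0995 (exact interval 0.0746 to 0.131). The surface receptor Lpar4 was at 16.7 CPM in KO and 64.0 CPM in WT cells, a ratio of 0.261 (0.217 to 0.310). The cytoskeletal Dcx was at 13.3 CPM in KO and 53.9 CPM in WT cells, a ratio of 0.247 (0.202 to 0.300). These 3 X-linked genes had similar levels in WT cells, and KO cells kept the least of Gpc3. The Golgi enzyme Gxylt2 was at 22.0 CPM in KO and 80.6 CPM in WT cells, a ratio of 0.273 (0.234 to 0.319). The secreted protease Htra3 was at 39.6 CPM in KO and 135 CPM in WT cells, a ratio of 0.294 (0.262 to 0.330). The matrix protein Mfap4 was at 24.8 CPM in KO and 89.5 CPM in WT cells, a ratio of 0.277 (0.239 to 0.320). For 5 of the 6 genes the ratio therefore lay between 0.247 and 0.294, with overlapping intervals.

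A gene was called lower when its log2 ratio on log2(CPM + 5) was -1 or less, over genes with at least 20 UMIs in both sums together. All 6 were lower by this rule, which called 96 of 13592 genes (0.706%). The rule that chose the genes used this contrast, so nothing is read from that share. Ranked by the upper bound of the ratio among the 2917 genes at 50 CPM or more, the 6 held places 2 to 7, each reaching 50 CPM through the WT cells alone. By log2 ratio over all 13592 tested genes, Gpc3 held place 2, Dcx 8, Lpar4 9, Mfap4 10, Gxylt2 11 and Htra3 14. These ranks describe the choice. The last of them, Htra3, had an upper bound of 0.330, and the gene just outside, Iigp1, had 18.5 CPM in KO and 65.6 CPM in WT cells with an upper bound of 0.333. The median log2 ratio was -1.67 over the 6 genes and 0.03 over all tested genes.

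Myogenic states were obtained by clustering the myogenic-like cells without the 6 genes and without the other genes that differed between the libraries, 216 genes in all. The cells fell into a stem-like state led by Chodl and other genes (160 KO and 508 WT cells), a cycling state (139 KO and 129 WT cells) and a differentiating state (67 KO and 45 WT cells). The remaining 7 KO and 5 WT cells carried mature fibre genes and stayed unnamed. In WT cells each of the 6 genes was highest in the stem-like state. Each was also highest there in KO cells. Only Htra3 and Mfap4 were higher in the differentiating than in the cycling state, in both libraries.

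In the stem-like state Gpc3 was at 12.0 CPM in KO and 85.4 CPM in WT cells, a ratio of 0.141 (0.0980 to 0.197). Lpar4 was at 27.4 CPM in KO and 75.5 CPM in WT cells, and Dcx at 29.1 CPM in KO and 74.0 CPM in WT cells. Gxylt2 was at 38.5 CPM in KO and 104 CPM in WT cells. These values put the KO level of all 4 genes under 0.4 of the WT level. The RNAs of the secreted proteins were nearer to WT. Htra3 was at 83.7 CPM in KO and 184 CPM in WT cells (ratio 0.454, 0.396 to 0.519). Mfap4 was at 54.9 CPM in KO and 126 CPM in WT cells (ratio 0.434, 0.366 to 0.512). All 6 were lower by the log2 rule in this state, where it called 0.602% of 11954 genes. The genes were chosen in myogenic cells, so the counts in this and the other states are a description, and nothing is read from these shares. For 4 of them the call did not hold when the state was built differently. With only the 6 genes left out of the clustering, chosen after the data were seen, the log2 ratios were -0.17 for Htra3, -0.42 for Mfap4, -0.56 for Lpar4 and -0.82 for Gxylt2. With barcodes from 2000 UMIs taken as cells they were -0.32 for Htra3, -0.62 for Mfap4, -0.72 for Lpar4 and -0.82 for Gxylt2. Gpc3 and Dcx stayed past the rule under both, at -1.85 and -1.81 for Gpc3 and -1.33 and -1.39 for Dcx. In the same state KO cells carried more Myod1 (100.4 CPM in KO and 31.6 CPM in WT cells) and more Myog (81.3 CPM in KO and 29.4 CPM in WT cells), and less Pax7 (155 CPM in KO and 195 CPM in WT cells).

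In the cycling state Lpar4 was at 14.1 CPM in KO and 54.3 CPM in WT cells, a ratio of 0.260 (0.189 to 0.351). Gpc3 was at 4.28 CPM in KO and 27.3 CPM in WT cells, a ratio of 0.157 (0.0878 to 0.264). Gxylt2, Dcx and Htra3 had ratios of 0.325, 0.329 and 0.359. Mfap4, at 6.80 CPM in KO and 16.4 CPM in WT cells, had a log2 ratio of -0.86, so 5 of the 6 were lower by the rule, which called 0.668% of genes there. With barcodes from 2000 UMIs taken as cells, the log2 ratio was -0.62 for Dcx and -0.34 for Mfap4. Gpc3, Lpar4, Gxylt2 and Htra3 then stayed past the rule. The differentiating state held only 45 WT cells, and Gpc3 and Dcx had 3 to 9 UMIs a library in it. Of the 4 genes with 20 UMIs, Htra3 (24.4 CPM in KO, 59.4 CPM in WT cells) and Mfap4 (15.9 CPM in KO, 43.1 CPM in WT cells) were lower by the rule, which called 1.18% of genes there.

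**Figure D1:**
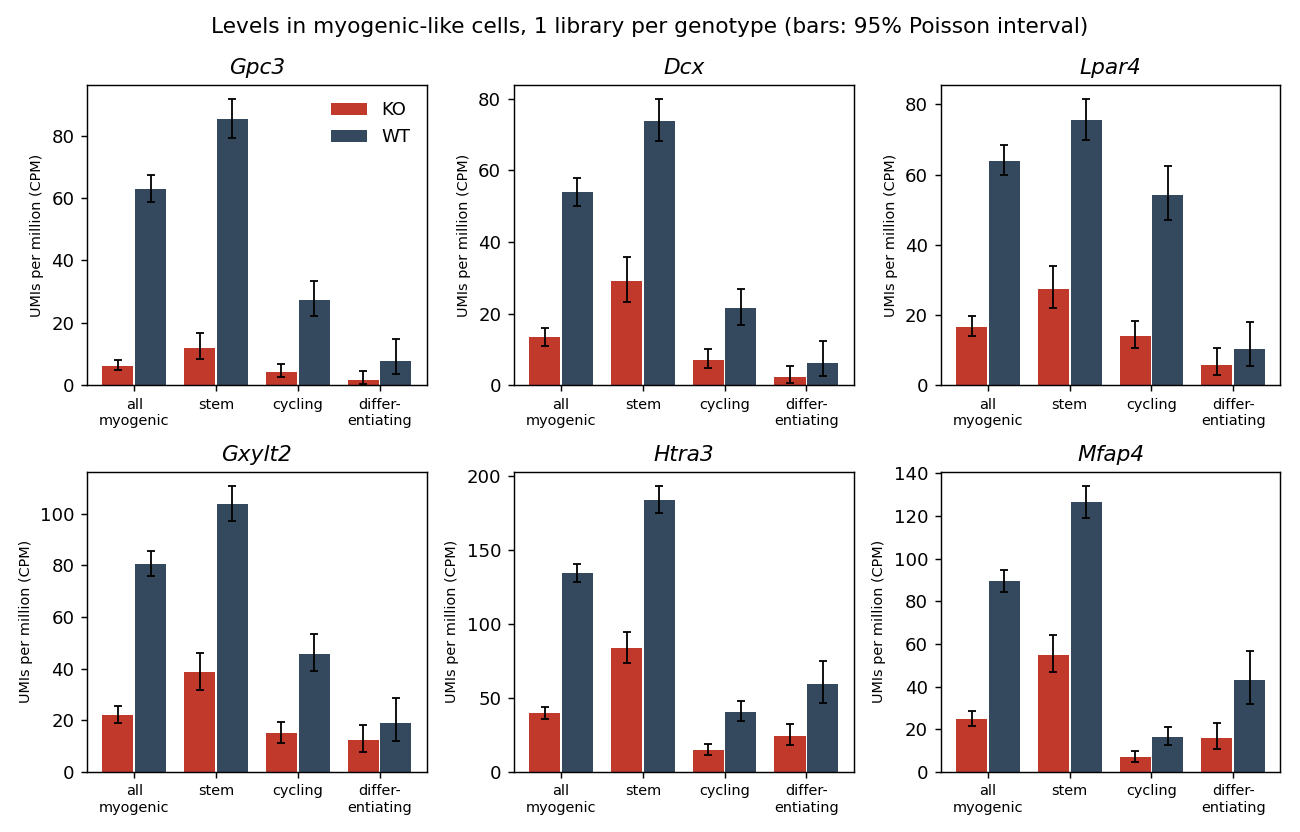
Level of each gene (y axis, CPM) in all myogenic-like cells and in the stem-like, cycling and differentiating states, for the KO library (red, left) and the WT library (dark, right), with 95% Poisson intervals for counting error. The KO bar is below the WT bar in every panel and state, and the stem-like bars are the highest of the 3 states in both libraries.

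The stem-like values also depend on how finely the state is cut, and the 6 genes part ways when it is. At a clustering resolution of 0.5 in place of 0.2, the myogenic-like cells fell into 7 clusters. The stem-named cluster, led by Nppc, Chodl, Dnajb1, Btg2 and Fos, then held 49 KO cells (13.1% of the KO myogenic-like cells) and 298 WT cells (43.4%). Its Pax7 level was 305 CPM in KO and 226 CPM in WT cells. Within it Htra3 was at 214 CPM in KO and 211 CPM in WT cells, a ratio of 1.02 (0.843 to 1.21). Mfap4 was at 127 CPM in KO and 145 CPM in WT cells, a ratio of 0.875 (0.687 to 1.10). Both intervals hold 1, so no difference in the RNA of these secreted proteins was detectable there at this depth. Lpar4 (54.7 CPM in KO, 86.1 CPM in WT cells) and Gxylt2 (78.2 CPM in KO, 127 CPM in WT cells) had ratios of 0.636 and 0.616, with intervals below 1. Gpc3 was at 17.2 CPM in KO and 98.4 CPM in WT cells, a ratio of 0.175 (0.0867 to 0.316). Dcx was at 12.5 CPM in KO and 82.2 CPM in WT cells, a ratio of 0.152 (0.0652 to 0.303). These rest on 11 KO UMIs of Gpc3 and 8 of Dcx, and the ratio of Dcx was the lowest of its 7 clusters.

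In each of the clusters other than that one and the smallest, all 6 genes had ratios with intervals below 1, Htra3 and Mfap4 included. In the cluster led by Srxn1, Has2 and Fosl1 (62 KO and 95 WT cells, unnamed), Htra3 was at 35.5 CPM in KO and 123 CPM in WT cells, a ratio of 0.289. In the one led by Slc40a1, Dio2 and Homer3 (40 KO and 104 WT cells, unnamed), Htra3 was at 48.0 CPM in KO and 180 CPM in WT cells, a ratio of 0.267. Gpc3 had ratios of 0.119 and 0.150 in these clusters, while Dcx had 0.529 and 0.546, with intervals above that of the stem-named cluster. Across the 6 clusters other than the smallest, the ratio of Gpc3 stayed between 0.119 and 0.202. In the smallest, with mature fibre genes (18 KO and 12 WT cells), the counts were low. Gpc3 had 5 KO and 3 WT UMIs, a ratio of 1.04 (0.202 to 6.67), and Htra3 20 KO and 12 WT UMIs, a ratio of 1.04 (0.482 to 2.32). Gxylt2, with 2 KO and 8 WT UMIs, had a ratio of 0.155 (0.0161 to 0.779), and Mfap4, with 11 KO and 24 WT UMIs, one of 0.285 (0.126 to 0.604). The intervals of Dcx and Lpar4 held 1.

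Since a smaller share of KO than of WT cells sat in the stem-named cluster, KO levels were also averaged over the 7 clusters. The weights were each cluster's share of the WT myogenic-like UMIs, and this alternative was chosen after the data were seen. The KO over WT ratio of Gpc3 was then 0.163, against 0.0995 unweighted, and that of Dcx 0.294, against 0.247. It was 0.462 for Lpar4 (0.261 unweighted) and 0.517 for Gxylt2 (0.273 unweighted). For Htra3 it was 0.715, against 0.294 unweighted, and for Mfap4 0.677, against 0.277. Only Gpc3 and Dcx passed the log2 rule after this weighting, with Lpar4 at the edge (-0.997). Over the 4 clusters of the main states the same weighting left all 6 past it, with ratios from 0.144 for Gpc3 to 0.445 for Htra3.

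**Figure D2:**
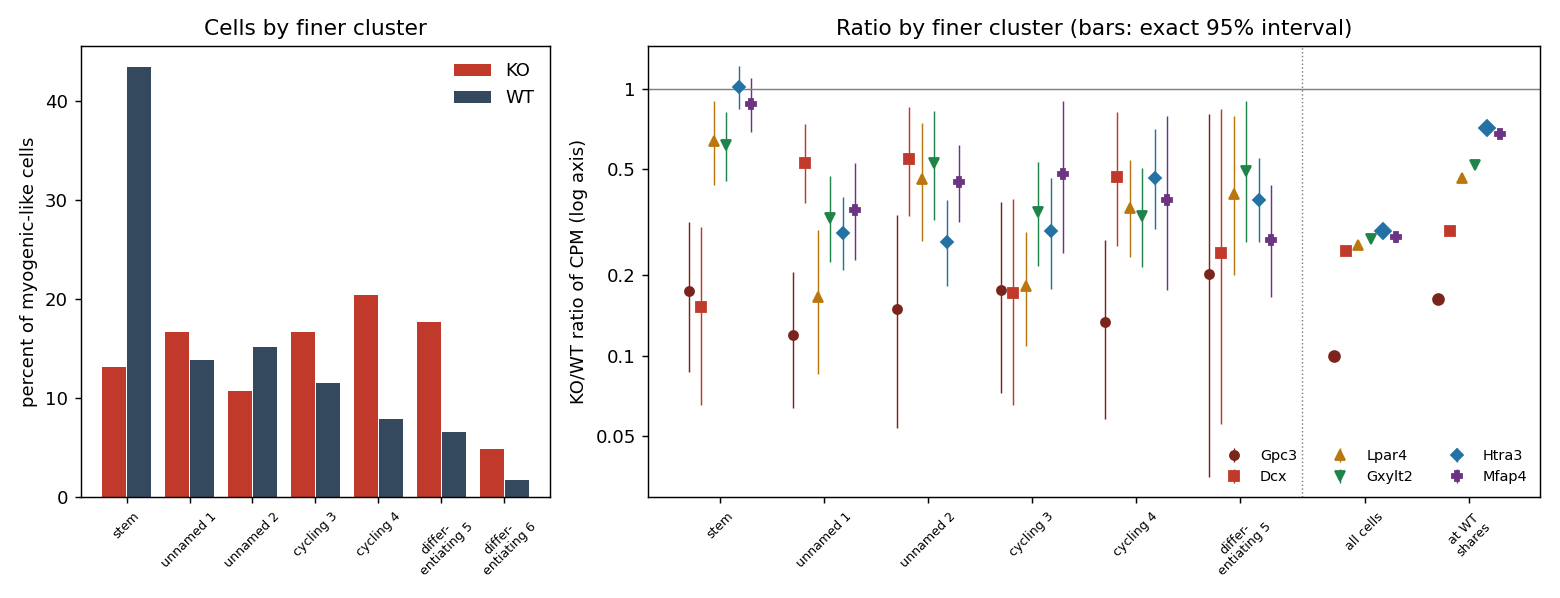
Left, the share of myogenic-like cells (y axis, percent) in each of the 7 finer clusters, KO red and left of WT dark. Right, the KO over WT ratio of each gene (log y axis, exact 95% intervals) in the 6 larger clusters. Then follow the ratio over all cells and that with KO levels weighted by each cluster's share of WT UMIs (points without intervals). The 6 genes start from ratios of 0.0995 to 0.294 over all cells and spread to between 0.163 for Gpc3 and 0.715 for Htra3 after weighting.

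The share of myogenic-like cells with a UMI of each gene was lower in the KO library. It restates the UMIs by which the genes were chosen, so it is given as a description. After each cell was thinned at random to 5000 UMIs, which left out no myogenic-like cell, Gpc3 had a UMI in 3.49% of KO cells (13 of 373, Clopper-Pearson 95% interval 1.87 to 5.89%) and in 21.8% of WT cells (150 of 687, 18.8 to 25.1%). Without thinning the shares for Gpc3 were 9.38% of KO and 41.9% of WT cells, and those for Htra3 38.3% of KO and 76.1% of WT cells. For Dcx the thinned share was 6.43% of KO and 22.9% of WT cells, and for Lpar4 6.97% of KO and 25.6% of WT cells. For Gxylt2 it was 9.65% of KO and 31.0% of WT cells. Htra3 was seen in 20.9% of KO and 48.0% of WT cells, and Mfap4 in 9.38% of KO and 29.7% of WT cells. Mononuclear phagocyte-like cells, where the levels of all 6 genes were low, had a UMI of each in 0.0333% to 1.36% of KO and 0.136% to 2.35% of WT cells at the same depth. Their median depths before thinning were 12033.5 UMIs in KO and 11303 UMIs in WT cells. In the differentiating state, after thinning, Gpc3 had a UMI in 0 of 67 KO cells and in 1 of 45 WT cells. By the floor of 3 counts, the 0 allows a share of KO cells with a UMI of up to 4.48% at that depth, and before thinning the KO cells held 3 UMIs of Gpc3.

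At least 3 of the 6 genes had a UMI in 14 KO myogenic-like cells (3.75%) and in 198 WT cells (28.8%). None of the 6 had a UMI in 60.6% of KO and 21.4% of WT cells. In the stem-like state at least 3 were seen in 8.13% of KO and 38.8% of WT cells. In fibro-adipogenic or fibroblast-like cells the corresponding shares were 10.0% of KO and 17.4% of WT cells, and in mononuclear phagocyte-like cells 0 of 3004 KO and 0 of 2934 WT cells. The distribution of the WT myogenic-like cells peaked at 2 genes and that of the KO cells at 0. In myogenic-like cells these shares, too, rest on the UMIs by which the genes were chosen.

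**Figure D3:**
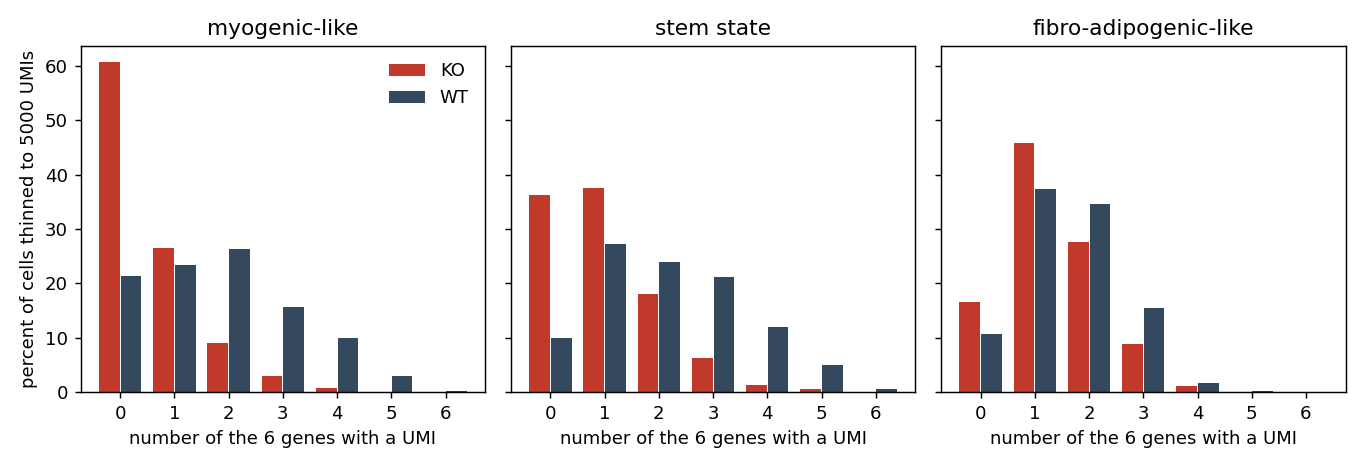
Share of cells (y axis, percent) by how many of the 6 genes had a UMI after thinning to 5000 UMIs (x axis), in myogenic-like cells, their stem-like state and fibro-adipogenic or fibroblast-like cells, KO red and left of WT dark. KO myogenic-like cells pile up at 0 genes (60.6%), whereas the fibro-adipogenic distributions of KO and WT cells lie closer together.

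Further measures came from barcodes below the cell minimum and from the other cell classes. The choice of genes was stated for myogenic cells, and whether it drew on such low barcodes is not known. Barcodes with at least 1000 UMIs but fewer than the minimum (6297 UMIs in KO, 5146 in WT) and with at least 3 myogenic markers were assigned to the myogenic-like profile. There were 133 such KO and 32 such WT barcodes, with 408448 and 102483 UMIs. Gpc3 had 6 KO and 15 WT UMIs, or 14.7 CPM in KO and 146 CPM in WT barcodes, a ratio of 0.10 (0.0319 to 0.274). Dcx had 4 KO and 13 WT UMIs, a ratio of 0.0772 (0.0183 to 0.25). Lpar4 had 8 KO and 14 WT UMIs, a ratio of 0.143 (0.0521 to 0.366), and Gxylt2 6 KO and 11 WT UMIs, a ratio of 0.137 (0.0416 to 0.404). These surface, cytoskeletal and Golgi genes were at ratios near or below those of the called cells. Htra3 had 30 KO and 21 WT UMIs, a ratio of 0.358 (0.199 to 0.659). Mfap4 had 20 KO and 9 WT UMIs, a ratio of 0.558 (0.243 to 1.39) whose interval holds 1. Of the 4 genes with 20 UMIs, Gpc3, Lpar4 and Htra3 were lower by the log2 rule, which called 6.45% of 3393 genes in these shallow sums.

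These barcodes differed between the libraries in myogenic state. Pax7 was at 97.9 CPM in KO and 254 CPM in WT barcodes, Chodl at 110 CPM in KO and 361 CPM in WT barcodes, and Myog at 1351 CPM in KO and 556 CPM in WT barcodes. They also differed in markers of other classes, in both directions. The 15 phagocyte markers summed to 3653 CPM in KO (none at 0) and 995 CPM in WT barcodes (3 at 0), and the 15 fibro-adipogenic markers to 2000.2 CPM in KO (1 at 0) and 1015 CPM in WT barcodes (7 at 0). The 12 muscle fibre markers summed to 7604 CPM in KO and 6011 CPM in WT barcodes (3 at 0 in each). The 12 tenocyte markers summed to 235 CPM in KO (7 at 0) and 429 CPM in WT barcodes (8 at 0), and the 12 Schwann or glial markers to 252 CPM in KO (6 at 0) and 312 CPM in WT barcodes (8 at 0). Their part in the result was not tested. In the called myogenic-like cells the fibro-adipogenic markers summed to 703 CPM in KO and 765 CPM in WT cells, with none at 0, and the phagocyte markers to 985 CPM in KO and 536 CPM in WT cells, with none at 0. The muscle fibre markers summed to 4946 CPM in KO (none at 0) and 2037 CPM in WT cells (1 at 0), and the 9 erythroid markers found to 814 CPM in KO (1 at 0) and 47.9 CPM in WT cells (2 at 0). The fibro-adipogenic marker Pdgfra had 2 KO and 12 WT UMIs in the same cells. In bulk sums like these, a smaller share of cells with a gene and less RNA per cell cannot be told apart, and at levels this low the shares of cells with a UMI follow the mean level and do not separate them. Ambient RNA, taken from barcodes of 20 to 100 UMIs, could have given at most 1.31 of the 24.8 CPM of Mfap4 in KO and 2.63 of the 89.5 CPM in WT cells. It could have given less of each of the other 5 genes.

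The 6 genes differed in which other classes carried them, and Dcx was near 0 in all of them. Dcx had 4 KO and 14 WT UMIs over all cells outside the myogenic-like class, so its levels could be compared only in myogenic-like cells. The orders that follow are over classes of 50 or more cells in both libraries. In WT cells the order of Gpc3 was the stem-like state at 85.4 CPM, mural-like cells at 62.2 CPM and fibro-adipogenic or fibroblast-like cells at 35.0 CPM, the first pair with overlapping intervals. In KO cells mural-like cells came first at 49.7 CPM and the stem-like state followed fibro-adipogenic cells at 12.0 CPM. The level of Gpc3 was above all of these in Schwann or glial-like cells, at 323 CPM in 34 KO cells and 452 CPM in 62 WT cells, a ratio of 0.715 (0.570 to 0.890). Lpar4 in WT cells was highest in the stem-like (75.5 CPM) and cycling (54.3 CPM) states, then in endothelial-like cells (42.7 CPM), while in KO cells the endothelial-like level of 37.1 CPM came first and its interval met that of the stem-like state. Gxylt2 in WT cells was at 104 CPM in the stem-like state and 99.5 CPM in fibro-adipogenic or fibroblast-like cells, with overlapping intervals. In KO cells the fibro-adipogenic level, 74.0 CPM, was above that of the stem-like state, 38.5 CPM. Mfap4 was foremost a tenocyte-like and fibro-adipogenic transcript in both libraries.

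The 5 measurable genes were also lower in the KO library in fibro-adipogenic or fibroblast-like cells (817 KO and 747 WT cells). The differences were smaller than in all myogenic-like cells together. With KO levels weighted to the WT shares of the finer myogenic clusters, this order held for Gpc3, Lpar4 and Gxylt2. Htra3 (0.715) and Mfap4 (0.677) then had myogenic ratios nearer to 1 than their fibro-adipogenic ratios. Mfap4 was at 421 CPM in KO and 654 CPM in WT cells, a ratio of 0.644 (0.627 to 0.661). Htra3 was at 49.5 CPM in KO and 94.7 CPM in WT cells, a ratio of 0.523 (0.485 to 0.563). Gpc3, at 26.1 CPM in KO and 35.0 CPM in WT cells, had a ratio of 0.744 (0.665 to 0.832). Gxylt2 and Lpar4 had ratios of 0.744 (0.697 to 0.795) and 0.631 (0.540 to 0.738). Htra3 thus had the lowest ratio of the 5 in these cells. In myogenic-like cells its ratio was the highest, but its interval overlapped those of Lpar4, Gxylt2 and Mfap4. None of the 5 was lower by the log2 rule, which called 0.587% of 15321 genes there, and their median log2 ratio was -0.50 against 0.04 over all tested genes. The fibro-adipogenic class also differed in other markers, with the proliferation marker Mki67 at 95.1 CPM in KO and 38 CPM in WT cells and the matrix gene Dcn at 2253 CPM in KO and 3670 CPM in WT cells. Their part in the result was not tested. A small cluster of the class held 111 KO and 8 WT cells. In the larger cluster alone (706 KO and 739 WT cells) the ratios ran from 0.540 for Htra3 to 0.781 for Gpc3.

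The remaining classes gave ratios on both sides of 1. In tenocyte-like cells (99 KO and 77 WT cells) Mfap4 was at 782 CPM in KO and 1047 CPM in WT cells, a ratio of 0.747 (0.695 to 0.804). In the same cells Htra3 was at 96.9 CPM in KO and 78.7 CPM in WT cells, a ratio of 1.23 (0.965 to 1.58), and Gxylt2 had a ratio of 0.968 (0.712 to 1.32). In endothelial-like cells (542 KO and 650 WT cells) Lpar4 was at 37.1 CPM in KO and 42.7 CPM in WT cells, a ratio of 0.870 (0.735 to 1.03). In mural-like cells (101 KO and 69 WT cells) Gpc3 was at 49.7 CPM in KO and 62.2 CPM in WT cells, a ratio of 0.799 (0.540 to 1.19). Lpar4 went both ways in a class where it was scarce and in one with few cells. In mononuclear phagocyte-like cells it was near 0, at 0.126 CPM in KO (5 UMIs) and 0.431 CPM in WT cells (16 UMIs), a ratio of 0.292 (0.0836 to 0.834). In Schwann or glial-like cells it was at 40.1 CPM in KO (14 UMIs, 34 cells) and 13.6 CPM in WT cells (9 UMIs, 62 cells), a ratio of 2.94 (1.19 to 7.70). Over all cells outside the myogenic-like class, 0 of the 5 genes with 20 UMIs were lower by the rule, which called 0.175% of 19432 genes. By class, the rule called 0 of 5 genes in tenocyte-like cells (1.16% of all tested genes), 0 of 4 in endothelial-like cells (0.256%), 0 of 1 in mural-like cells (0.833%), 0 of 5 in mononuclear phagocyte-like cells (0.15%) and 0 of 2 in dendritic-like cells (0.486%). No test of the difference between classes was possible with 1 library a genotype.

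**Figure D4:**
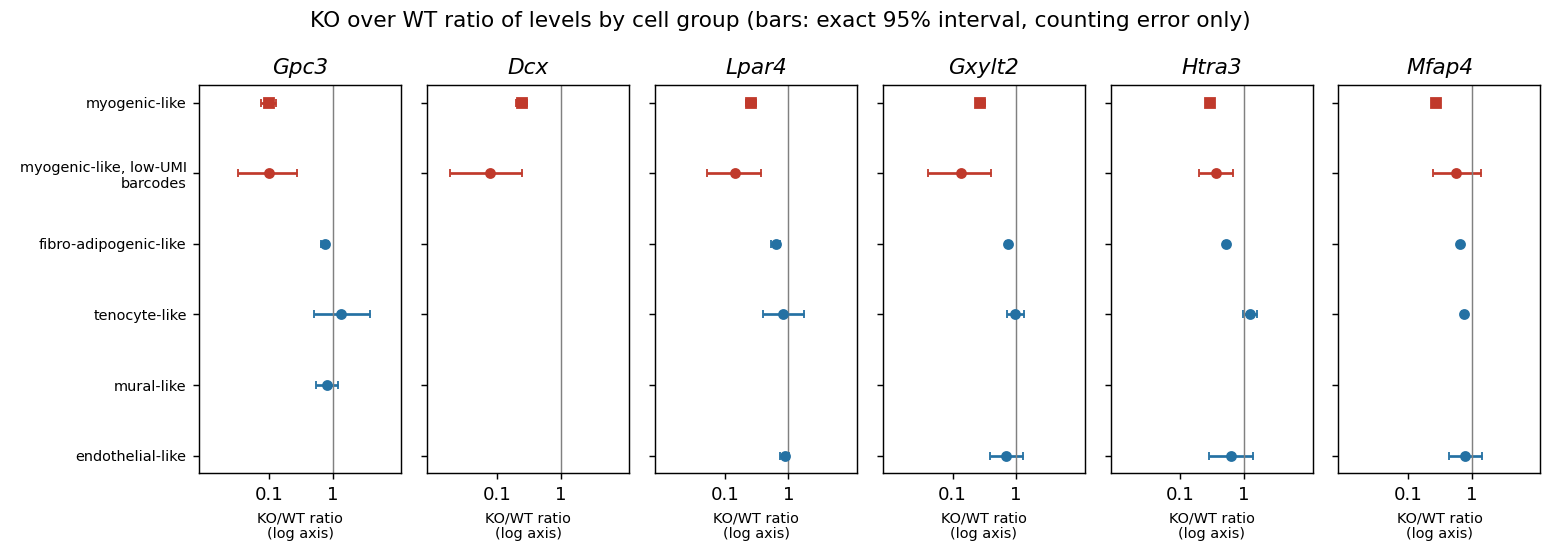
KO over WT ratio of each gene (log x axis, exact 95% intervals for counting error) in myogenic-like cells (square), in myogenic-like barcodes under the cell minimum (red circle) and in 4 other classes (blue, where the sums held at least 20 UMIs). The red points lie left of the blue ones in each panel that has both, and Dcx has points in the myogenic-like rows only. Some intervals overlap, and that of Mfap4 in the low barcodes (0.243 to 1.39) holds every blue Mfap4 point. The squares pool all myogenic states.

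Few relatives of the 6 genes passed the log2 rule in myogenic-like cells. Smaller differences, in both directions, often had intervals that did not hold 1. Examples are the ratios of Plpp3 (0.502, 0.425 to 0.589) and Plpp1 (1.32, 1.20 to 1.47), both lysophosphatidic acid enzymes. Of 9 tested heparan sulphate proteoglycans other than Gpc3, 0 were lower and 0 higher by the log2 rule (over all genes 0.706% were lower and 0.912% higher). Gpc4, the glypican gene next to Gpc3, was at 9.85 CPM in KO and 8.76 CPM in WT cells, and Sdc1, the syndecan with the largest difference, at 52.2 CPM in KO and 33.6 CPM in WT cells. After Sdc1, the list's largest log2 ratios were -0.37 for the syndecan Sdc2, -0.30 for Agrn, which encodes agrin, and -0.27 for the glypican Gpc6. Of 12 tested doublecortin relatives and neuronal microtubule genes, 0 were lower and 1 was higher. That one was Tubb3, a neuronal beta-tubulin, at 120 CPM in KO and 20.5 CPM in WT cells (log2 ratio 2.29). Stmn1, whose product destabilises microtubules, was at 428 CPM in KO and 256 CPM in WT cells (0.73), and Map2, a neuronal microtubule-associated protein, at 13.1 CPM in KO and 25.5 CPM in WT cells (-0.76).

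Of 7 tested lysophosphatidic acid receptors and enzymes, 0 were lower and 0 higher. The largest log2 ratio in size was that of Plpp3, a phosphatase that breaks down lysophosphatidic acid, at 22.5 CPM in KO and 44.8 CPM in WT cells. The scarcer enzyme gene Enpp2 had a lower ratio, 0.367 (0.156 to 0.774), on 9 KO and 37 WT UMIs. The receptor Lpar3 was at 8.28 CPM in KO and 4.97 CPM in WT cells. Of 10 tested enzymes that glycosylate Notch EGF repeats, 0 were lower and 0 higher, and Gxylt1, which carries out the same reaction as Gxylt2, was at 12.9 CPM in KO and 10.1 CPM in WT cells. Of 2 tested HtrA proteases, Htra1 was at 7.5 CPM in KO and 15.7 CPM in WT cells and Htra2, a mitochondrial protein, at 58.8 CPM in KO and 54.3 CPM in WT cells. Of 19 tested elastic fibre and microfibril genes, 1 was lower and 0 higher. It was Mfap2, a microfibril component, at 3.24 CPM in KO and 12.3 CPM in WT cells (log2 ratio -1.07). The next largest log2 ratios were -0.53 for Ltbp3, a latent TGF-beta binding protein, and -0.37 for Loxl1, a lysyl oxidase that crosslinks elastin. The fibrillin gene Fbn1 was at 42.0 CPM in KO and 51.0 CPM in WT cells.

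Some neighbours of the X-linked genes were also lower in KO cells. For each gene the 3 nearest genes on each side with at least 20 UMIs were examined, in all myogenic-like cells together. The stem-like state made up 160 of 373 KO and 508 of 687 WT myogenic-like cells. Capn6, described below, was among the leading genes of a cluster led by Pax7 and Myf5. Neighbours were not compared within states, so the part of this shift was not tested. Of the 18 neighbours of Gpc3, Dcx and Lpar4, 3 were lower by the log2 rule, and of the 18 neighbours of Gxylt2, Htra3 and Mfap4, 0 were, against the 0.706% of all genes. Rtl3, a gene derived from a retrotransposon's Gag that lies 80.0 kb from Lpar4, had 64 KO and 633 WT UMIs, or 7.16 CPM in KO and 47.0 CPM in WT cells (log2 ratio -2.10). Itm2a, a membrane protein gene 463 kb from Lpar4 on its other side, was at 442 CPM in KO and 972 CPM in WT cells (-1.13). Capn6, whose calpain-like product binds microtubules and which lies 28.4 kb from Dcx, was at 154 CPM in KO and 342 CPM in WT cells (-1.13). Other near genes did not follow, such as Pak3, 58.0 kb from Dcx, at 6.94 CPM in KO and 2.82 CPM in WT cells. P2ry10b, between Lpar4 and Itm2a, was scarce but also lower, at 0.448 CPM in KO (4 UMIs) and 1.93 CPM in WT cells (26 UMIs). Its log2 ratio was only -0.35 because 5 CPM are added to both levels. None of the 6 neighbours of Gpc3 passed the rule, and the lowest of them, Hs6st2, which sulphates heparan sulphate chains, had a log2 ratio of -0.60. Mfap4 overlaps Mapk7 on the opposite strand, which had 39 KO and 82 WT UMIs. Without a stated strand setting, reads of this pair cannot be told apart where they overlap.

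**Figure D5:**
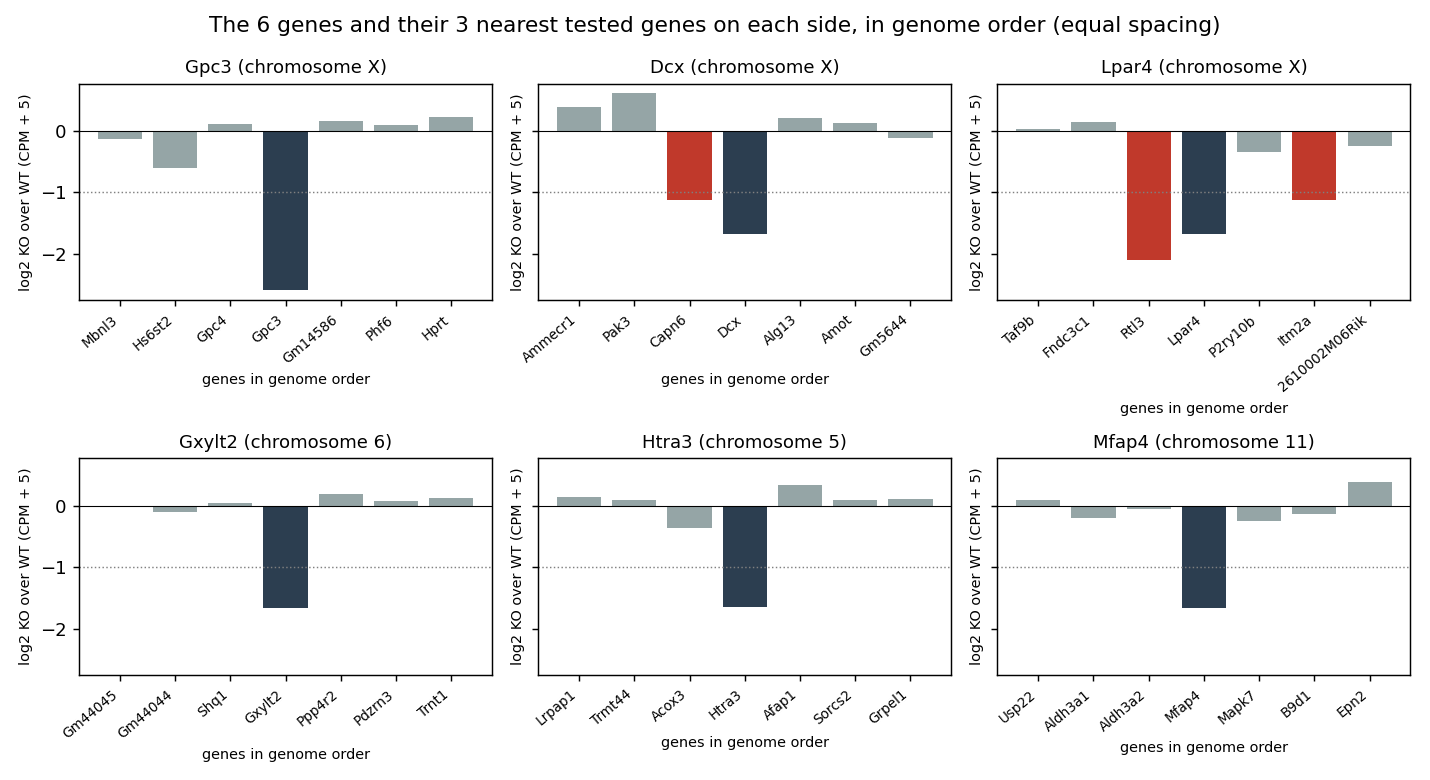
Log2 ratio of KO over WT on CPM + 5 (y axis) in myogenic-like cells for each of the 6 genes (dark bar, centre) and its 3 nearest tested genes on each side, in genome order with equal spacing. Red bars are neighbours at -1 (dotted line) or less, and they occur only beside Dcx and Lpar4.

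The genes most like each of the 6 in level were found by Pearson's r of log2(CPM + 5) over 16 sums, 8 cell groups in 2 libraries, which is a description over few points that share libraries. Gxylt2 and Htra3 were each other's closest match (r = 0.97), and Mfap4 had r = 0.87 with Gxylt2 and 0.86 with Htra3. Mfap4 was most like Fibin (0.98) and Ogn (0.97), a small leucine-rich proteoglycan. Dcx was most like Pde1c (0.98) and Mybpc1 (0.96), and the myogenic factor Myf5 was among its first 5 (0.96). Lpar4 was most like Igfbp3 (0.93) and Gpc3 most like Fstl3 (0.91). Among the 6 genes r was lowest for Dcx with Mfap4 (0.09). The sums include the stem-like and cycling states of both libraries, so likeness among the 6 genes is not independent of their choice.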

How the data were processed

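The authors deposited, for each library, a matrix of raw UMI counts over all genes and barcodes, in whole numbers. Per the submitters' processing notes, the tools were STARsolo 2.7.9a, STAR 2.7.8a and Seurat 4.0.1, with genome build GRCm38. No source used here gives the annotation, the strand setting or the counting options. Cells were called from all barcodes with a per-library UMI minimum (the 99th percentile of the top 3000 barcodes divided by 10, 6297 in KO and 5146 in WT), at least 300 genes and at most 10% mitochondrial UMIs. Scrublet's own threshold marked 0 doublets, so its highest scores were removed at 0.8% per 1000 barcodes (290 KO and 356 WT). Both libraries were clustered together (scanpy 1.11.5, leidenalg 0.10.2), and clusters were named from marker lists as "-like". A cluster named muscle fibre, led by Actc1 and Myog, was joined to the myogenic class after the data were seen. Leaving genes that differ between the libraries out of the state clustering was also decided then.

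UMIs were summed per class and library. Ratios have exact conditional binomial intervals, levels Poisson intervals and shares Clopper-Pearson intervals, all at 95%. Thinning was drawn separately for each class and state. With 1 library per genotype no test of the condition was made. Log2 ratios use CPM + 5, which understates differences of low genes. Calls and intervals were checked on simulated counts drawn with counting error only, so this check does not cover spread between cells or libraries. The 6 genes and all gene lists were chosen with earlier results of these data known. Besides the 6 genes, the genes named are up to 4 per family list with the largest log2 ratio in size, the 3 nearest tested genes on each side, the 5 of highest r, and markers beside a result. Genes that lead a cluster, Iigp1, Enpp2 and the X-linked genes of the closing section were named after their values were seen. Gene positions come from GENCODE M21, which held 55141 of the 55487 gene IDs, and promoters from RefSeq, which held 5 of the 6 genes. Neighbours, relatives and ratios rest on the same 2 libraries.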

Additional observations from a re-analysis of the deposited data

Results flagged for a closer look

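Gpc3 and Htra3 went the opposite way in 2 connective tissue classes, and this difference was not tested. Htra3 had a log2 KO over WT ratio of 0.28 in tenocyte-like cells (96.9 CPM in KO and 78.7 CPM in WT cells) but -0.87 in the fibro-adipogenic or fibroblast-like class (49.5 CPM in KO and 94.7 CPM in WT cells). Gpc3 had 0.23 in tenocyte-like cells, on 15 KO and 7 WT UMIs, and -0.37 in the fibro-adipogenic class. Each value comes from 1 library a genotype, and both tenocyte-like ratios have intervals that hold 1.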

How the results depend on the processing

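All 6 genes stayed lower by log2 of 1 or more in myogenic-like cells under 9 of 10 alternatives. The exception weighted KO levels to the WT UMI shares of the finer clusters, which left 2, as described with the finer clusters. Over the 10 alternatives the log2 ratio of Gpc3 ran from -2.67 to -2.16, and that of Htra3 from -1.70 to -0.46. By state, 11 of 12 pairs of a gene with the stem-like or cycling state passed. It was 6 of 12 when barcodes from 2000 UMIs were taken as cells, 7 at a state resolution of 0.5, 7 at 1.0, and 6 when only the 6 genes were left out of the state clustering. At a resolution of 0.5 Htra3 in the stem-named cluster had a log2 ratio of 0.0215, with the sign turned (-1.09 in the broader stem-like state). The cause was not tested. The weightings and the clustering without only the 6 genes were chosen after seeing the data. In the fibro-adipogenic class all 5 measurable genes kept a ratio below 1 under each of the 7 alternatives. Among relatives, a pseudocount of 1 CPM gave 2 higher genes (Dclk3 besides Tubb3), and one of 20 CPM gave 0 lower. Neighbour counts were the same under the 3 alternatives run. No paired analysis was possible because each genotype has 1 library. Depth limits Dcx outside myogenic-like cells and all 6 genes in the differentiating state.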

Other observations

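Among genes on chromosome X with at least 20 UMIs, 10 of 433 (2.31%) were lower by log2 of 1 or more in KO myogenic-like cells, against 86 of 13118 autosomal genes (0.656%). This count was made after the positions of the 6 genes were seen, and 3 of the 10 are Gpc3, Dcx and Lpar4. It pools the myogenic states, whose shares differed between the libraries, and it was not made by state. Without the 6 genes it was 7 of 430 (1.63%) on X and 83 of 13115 (0.633%) on the autosomes. The 7 were Rtl3, Maged2, Cited1, Kcne1l, Itm2a, Capn6 and Nrk. Maged2 was at 62.3 CPM in KO and 177 CPM in WT cells, and Cited1, a transcriptional co-activator, at 41.2 CPM in KO and 117 CPM in WT cells. The median log2 ratio of all tested X-linked genes was 0.02 and that of autosomal genes 0.03. The sex of the mice was not stated in the labels.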
